A study of Mus musculus with 6 samples.

Results

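Among 20161 mouse splenocytes that passed limits of 300 to 5000 genes and at most 10% mitochondrial RNA, 480 were B cells that carried RNA of the transcription factor gene Bhlhe41 without RNA of Fcer2a, the gene of CD23. A member of this population had at least 1 UMI (unique molecular identifier, the count of 1 captured RNA molecule) of Bhlhe41 and of the B cell receptor gene Cd79a, and no UMI of Fcer2a or of the T cell genes Cd3d, Cd3e and Cd3g. Members were thus chosen by these UMI counts, and the levels of those genes are given as a description only. B cells, defined as Cd79a-positive and Cd3-negative, numbered 10321, of which 6551 had an Fcer2a UMI and no Bhlhe41 UMI, as is usual for follicular B cells. A further 1060 lacked both and had at least 2 UMIs in the sum of Cr2, Dtx1 and S1pr3. These are genes of marginal zone B cells, and the 1060 cells are called marginal zone-rule cells here. Both populations serve as comparison.

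RNA and surface protein were counted together by CITE-seq (antibodies with DNA tags sequenced beside the RNA of each cell) in spleen cells of C57BL/6 mice. The labels give young mice of 3 months that received saline, aged mice of 20 months that received saline, and aged mice of 20 months that received recombinant mouse PF4 (platelet factor 4, a platelet chemokine) at 5 µg/mL, each by 8 tail vein injections of 100 µL across 24 days. Cells of 5 mice were pooled per group, with 1 RNA and 1 antibody library each. The deposited matrix separates 3 libraries by a barcode suffix, and neither the labels nor the study's methods say which suffix belongs to which group. Libraries are therefore called 1, 2 and 3, and neither age nor PF4 was compared. With 1 library per suffix and no replicate there is no test. The 95% intervals given (exact, binomial or Poisson) reflect the error of counting and nothing else.

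B1 cells are a B cell lineage that arises largely around birth, renews itself and secretes natural IgM against self antigens and microbial lipids and sugars. They are common in the body cavities and rare in the spleen, and are known for low CD23, low B220, CD43 (encoded by Spn) and, in the B1a subset, CD5. BHLHE41 is a transcriptional repressor with a known role in the maintenance of B1a cells. Each B cell joins a heavy chain variable (V) segment and a light chain V segment of kappa or lambda type, so cells that descend from the same B cell carry the same segments, although unrelated cells can also use a segment in common.

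A pair of V segments recurred among the members of library 1, and their reference sequences are shown because the results by light chain turn on them. Ighv1-80 is a heavy chain V segment at chr12:115912344-115912776 on the minus strand of mm10, and Iglv1 is the V segment of the lambda 1 light chain at chr16:19085017-19085500, also on the minus strand, beside its constant gene Iglc1 at chr16:19061618-19062071. The last 290 bases of each germline transcript in GENCODE M21 are printed 5′ to 3′. They are reference sequences and were not read from these cells. Capitals mark the bases that differ from the most similar segment of the same locus.
Ighv1-80: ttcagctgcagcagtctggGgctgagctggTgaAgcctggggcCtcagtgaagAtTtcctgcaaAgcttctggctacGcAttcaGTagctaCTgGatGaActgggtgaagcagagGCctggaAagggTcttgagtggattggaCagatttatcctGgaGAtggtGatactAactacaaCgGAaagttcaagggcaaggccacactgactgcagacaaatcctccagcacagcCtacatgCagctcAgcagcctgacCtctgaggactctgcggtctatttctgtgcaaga
Iglv1: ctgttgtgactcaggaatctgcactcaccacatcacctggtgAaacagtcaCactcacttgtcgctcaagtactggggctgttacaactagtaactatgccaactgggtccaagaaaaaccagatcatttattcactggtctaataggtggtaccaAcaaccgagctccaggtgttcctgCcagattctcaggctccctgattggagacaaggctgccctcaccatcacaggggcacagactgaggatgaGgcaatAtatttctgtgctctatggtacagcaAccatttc
Over the whole transcript Ighv1-80 was 89.2% identical to its nearest relatives, Ighv1-81 and Ighv1-84, among 182 segments, and Iglv1 was 90.5% identical to Iglv2. Within the printed bases Ighv1-80 and Ighv1-81 differed at 33 positions, and Iglv1 and Iglv2 at 7. Near-identical segments can share reads, and the libraries were prepared with a 3′ kit, which captures few reads from V segments, so a missing V UMI does not show that a cell lacks the segment.

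The libraries held 24569928, 36599055 and 40949298 RNA UMIs over all barcodes, and 4199, 7511 and 8451 kept cells with 1894, 4076 and 4351 B cells. RNA of neutrophils and red blood cells was most abundant in library 1. S100a8, a neutrophil gene, stood at 1576 CPM (UMIs of a gene per 1000000 UMIs, summed over the cells of a population) in its Fcer2a-positive cells against 98.9 and 191 CPM in libraries 2 and 3. A total of 68 barcode sequences occurred under more than 1 suffix, involving 1 member and no sequence shared between members. Scrublet, a doublet caller, marked 1, 6 and 0 members. Of 569 barcodes that met the gene rule, 86 were left out for over 10% mitochondrial UMIs, 3 for over 5000 genes and 1 for under 300, limits that can overlap.

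Members made up 217 of 1894 B cells in library 1 (11.5%, 10.1 to 13.0%), 198 of 4076 in library 2 (4.86%, 4.22 to 5.56%) and 65 of 4351 in library 3 (1.49%, 1.15 to 1.90%). The intervals did not overlap between any pair of libraries. A Bhlhe41 UMI was found in 13.6%, 6.58% and 2.96% of all B cells, at median depths of 3341.5, 3162.5 and 3285 UMIs, and in 0.412%, 0.124% and 0.170% of T cells at 4808.5, 5180.5 and 5022.5 UMIs. After each cell was thinned to 1000 UMIs the B cell shares were 3.61%, 1.97% and 0.688%, and the T cell shares 0.217%, 0.0645% and 0% (upper bound 0.214%). Thinning left out 177, 379 and 284 B cells of lower depth.

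Just inside the rule stood 277 members with a single Bhlhe41 UMI (108, 128 and 41 by library), against 203 with more. Just outside stood 175 B cells with UMIs of both Bhlhe41 and Fcer2a (41, 70 and 64). Members were deeper than the cells they are compared with, at medians of 6367, 4535 and 7175 UMIs against 3110.5, 3125 and 3330.5 in Fcer2a-positive cells. The part of depth in what follows was not tested.

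**Figure D1:**
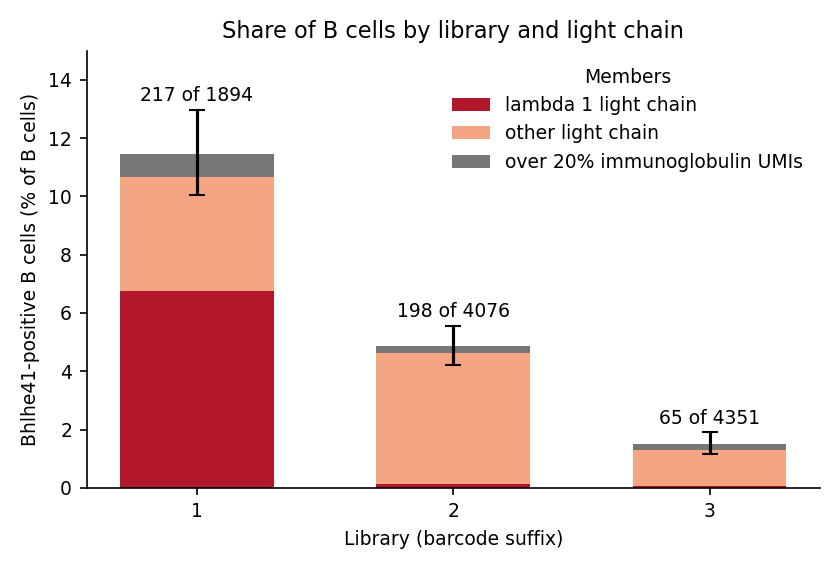
Bhlhe41-positive B cells as a percent of B cells in libraries 1, 2 and 3, stacked by the most counted light chain, with members of over 20% immunoglobulin UMIs in grey and bars for the exact binomial 95% interval of the whole. Cells with a lambda 1 light chain fill most of the bar of library 1 and almost none of the other two.

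The label of B1-like cells was checked against its markers. The general B cell genes were present, with a UMI of Cd79b in 96.8 to 99.5% and of Ms4a1 (CD20) in 94.2 to 100% of members, leaving out 32 cells rich in immunoglobulin RNA that are described after the markers. Spn, which encodes CD43, Cd9 and Plac8 were each higher than in Fcer2a-positive cells in every library. Cd5 RNA, in contrast, was near its floor, with UMIs in 5 of 202, 7 of 189 and 4 of 57 of these members (3.74, 7.49 and 9.51 CPM) and 1.46, 2.71 and 3.86 CPM in Fcer2a-positive cells. Ctla4, a B1a gene, was at 14.2, 7.49 and 0 CPM. CD5 protein had medians of 31, 36 and 42 counts per cell in all members against 29, 33 and 35 in Fcer2a-positive cells, so CD5, which defines B1a cells, did not mark these cells as a group. Ahnak2, Sox5 and Dnm3, the other markers proposed for the population, were proposed with these data in view and differed in where they were found. Ahnak2 (chr12:112772194-112802657) was found in 51.5%, 2.12% and 5.26% of members. Dnm3 (chr1:161982453-162478034), which encodes a dynamin of membrane fission, was found in 6.44%, 33.3% and 12.3%. In library 1, 104 members had an Ahnak2 UMI and 13 a Dnm3 UMI, but only 1 had both, while 61 had Ahnak2 and Sox5 together. In library 2, 11 of 63 members with Dnm3 also had Sox5, a share near that of all members there (32 of 189). In library 3, 2 of 3 members with Ahnak2 also had Dnm3, too few cells to read a pattern from.

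A small set of members resembled antibody-secreting cells. Immunoglobulin genes took over 20% of the UMIs of 32 members, 15, 9 and 8 by library, with medians of 61.0%, 56.4% and 35.1%. The lowest of these stood at 20.6%, and the members next below it at 15.8% and 6.87%. The limit was set after these values were seen. The 32 cells held 86.9%, 84.3% and 87.8% of the members' immunoglobulin UMIs. Ighm was the most counted heavy chain in 11 of 15 and 8 of 9 of them in libraries 1 and 2, but in 2 of 8 in library 3, where 2 had Ighg1, 2 Ighg3, 1 Ighg2c and 1 Igha. Jchain, which joins secreted IgM and IgA, stood at 3835, 2363 and 3204 CPM in all members and at 11.2, 233 and 21.4 CPM without the 32 cells, where a single cell held 95.4% of the Jchain UMIs of library 2. The other 448 members had mostly IgM, with Ighm as the leading heavy chain in 197 of 201, 172 of 184 and 54 of 57 cells that could be assigned.

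On the cell surface, CD44, an adhesion receptor for hyaluronan that is raised on activated and B1 cells, stood apart. Its median count was 164, 223 and 190 in members, 57, 55 and 56 in Fcer2a-positive cells and 62, 69 and 63 in marginal zone-rule cells. As a share of all antibody counts it was 2.12, 2.61 and 2.26 times that in Fcer2a-positive cells, and 2.07, 2.06 and 2.18 times that in marginal zone-rule cells. Of 34 antibodies it was the only one at least 1.5 times apart in the same direction in every library against both populations. CD38 had medians of 140, 230.5 and 144 against 94, 95 and 94, with share ratios of 1.34, 1.88 and 1.08.

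The other B1 surface features differed between libraries. B220, the B cell form of CD45 that is low on B1 cells, had a median of 69 in members of library 1 against 249 in Fcer2a-positive cells, but 236 and 218 against 247 and 250.5 in libraries 2 and 3. CD24 was above Fcer2a-positive cells in libraries 1 and 3 and under them in library 2, at 671, 193.5 and 706 in members against 354, 351 and 395. CD11b, an integrin of peritoneal B1 cells and myeloid cells, had medians of 4, 12 and 6 against 3, 3 and 4. Among the 448 members, a CD11b count above the 95th percentile of Fcer2a-positive cells was found in 13.4%, 53.4% (46.1 to 60.7%) and 17.5%. Members of library 2 were thus the most often CD11b-high, and those of library 1 the most often B220-low.

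**Figure D2:**
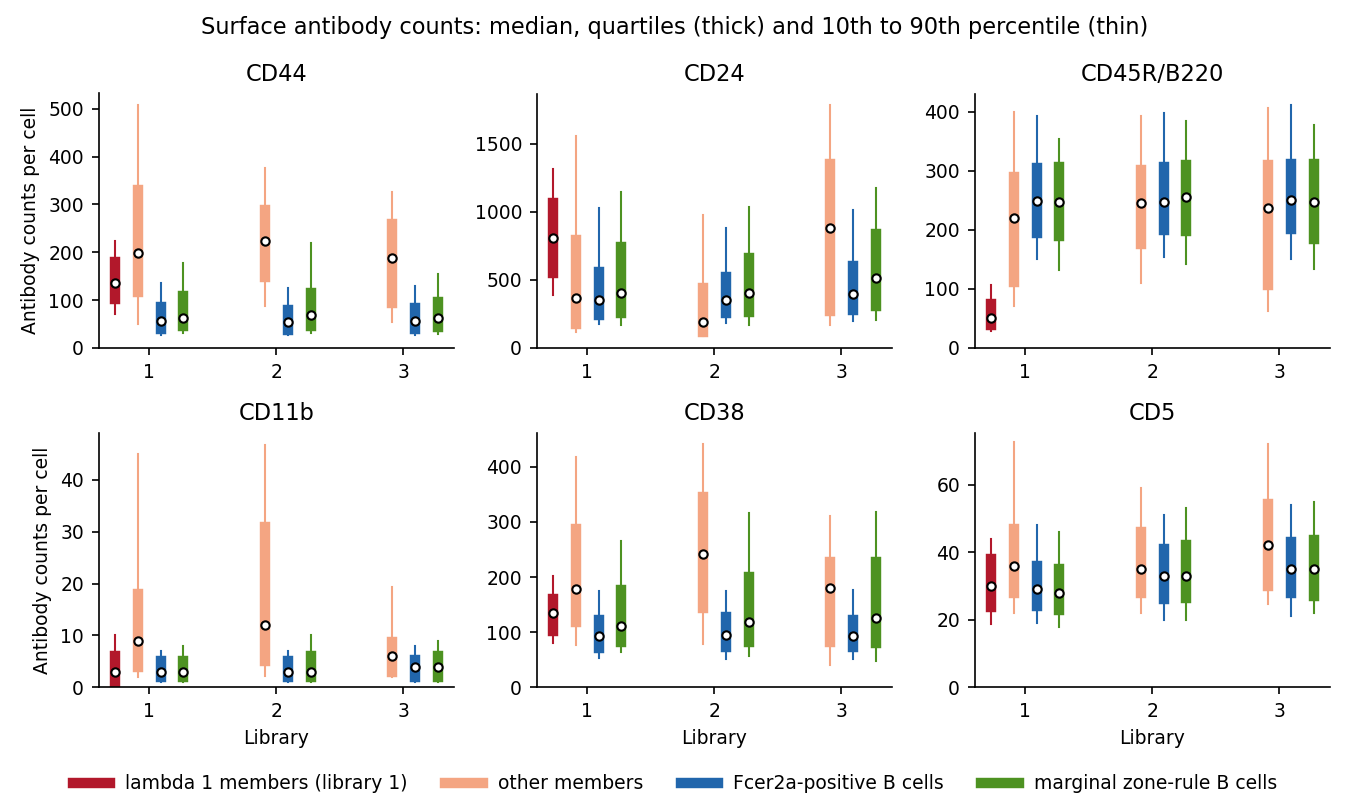
Counts per cell of 6 surface antibodies in libraries 1 to 3 for lambda 1 members (library 1 only), other members, Fcer2a-positive cells and marginal zone-rule cells, with the members rich in immunoglobulin left out. White points are medians, thick bars quartiles and thin bars the 10th to 90th percentile. CD44 is above both comparison populations in every library, while low B220 is seen in the lambda 1 members.

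RNA was compared by summing counts per library over each population. A gene was called higher or lower where it differed at least 2-fold with intervals apart in the same direction in every library, among genes of at least 50 CPM in either population. Against Fcer2a-positive cells 70 of 3377 genes were higher (2.07%) and 85 lower (2.52%) in all members, together 4.59%. Without the 32 cells rich in immunoglobulin, 42 of 3440 were higher (1.22%) and 53 lower (1.54%), of which 30 and 50 were shared with the former calls. Gene values from here on leave out those 32 cells. The median log2 ratio of all genes tested was then -0.04, -0.03 and -0.11 in libraries 1, 2 and 3.

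Genes of the B1 cell list were among the higher ones. Of 25 listed, 19 could be compared, and 10 were higher and 0 lower, with median log2 ratios of 2.33, 2.03 and 1.71. The higher ones include Ahnak2, Sox5 and Dnm3, which were proposed with these data in view. The calls of these markers are therefore a description only. Ahnak2, Sox5, Dnm3, Zbtb32 and Spn were under 50 CPM in Fcer2a-positive cells of every library. They passed the limit only through the members, where they are high, and could not have been called lower. The count of 10 higher and 0 lower and the medians of the list are thus a description too. Ahnak2 stood at 203, 6.42 and 7.13 CPM in members of libraries 1, 2 and 3 against 6.42, 0.118 and 0.184 CPM in Fcer2a-positive cells. Sox5, a transcription factor gene, stood at 122, 40.7 and 19.0 CPM against 5.83, 4.72 and 2.76 CPM. Dnm3 stood at 17.9, 141 and 54.7 CPM against 2.92, 2.83 and 1.75 CPM. All 3 were higher in every library, but Ahnak2 was highest in library 1 and Dnm3 in library 2. Outside library 1 the Ahnak2 call rested on 4 of 189 and 3 of 57 members with a UMI, near the floor of counts used for folds. Zbtb32, a repressor that limits B cell responses, was at 167, 57.8 and 26.2 CPM against 9.04, 1.42 and 0.644 CPM. Spn was at 88.9, 170 and 78.5 CPM against 20.7, 14.8 and 23.9 CPM, and Lgals1, which encodes galectin-1, at 253, 218 and 147 CPM against 50.5, 34.3 and 41.8 CPM. Cd9, Fcrl5, Plac8 and Cd300lf were higher as well. Cd9 encodes a tetraspanin of B1 and marginal zone cells, and Fcrl5 an Fc receptor-like protein of innate-like B cells.

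Genes of the atypical or age-associated B cell list shared part of this pattern. Of the 11 listed, only 4 could be compared, and these were higher, namely Zeb2, Fcrl5, Zbtb32 and Apoe, 2 of which are also in the B1 list. Zbtb32 passed the limit of 50 CPM only through the members and could not have been called lower, so the count is a description only. Zeb2, a transcription factor gene, was at 269, 791 and 466 CPM against 120, 123 and 134 CPM. Apoe, a lipid carrier, was at 1313, 1400 and 459 CPM against 224, 135 and 144 CPM. Both were lowest relative to Fcer2a-positive cells in a different library, Zeb2 in library 1 and Apoe in library 3. Itgb1, the beta-1 integrin of the homing receptor list, was at 576, 719 and 257 CPM against 84.6, 68.8 and 74.5 CPM. Of the 12 homing receptors compared it was the only one higher. Among the 10 genes with the largest smallest fold were also Gpr55, a lipid receptor, at 53.1, 59.9 and 40.4 CPM against 5.25, 2.24 and 1.75 CPM, and Plscr1, a phospholipid scramblase, at 95.6, 42.8 and 64.2 CPM against 14.3, 3.89 and 4.69 CPM. Ahr, the aryl hydrocarbon receptor, was at 62.8, 55.7 and 121 CPM against 13.7, 10.5 and 7.82 CPM.

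Genes of resting follicular cells were among the lower ones. Of 14 follicular genes compared, 6 were lower and 0 higher, with median log2 ratios of -1.33, -1.11 and -1.34 (8 lower with all members). Ighd, the heavy chain of IgD, was at 217, 650 and 483 CPM in members against 1473, 1585 and 1603 CPM. Satb1, a chromatin organiser, was at 13.4, 34.3 and 45.2 CPM against 165, 201 and 235 CPM. Icosl, the ligand of the T cell receptor ICOS, was at 14.2, 23.6 and 19.0 CPM against 104, 136 and 136 CPM. Il4ra and Cd55 were lower as well. Library 1 was the lowest for Ighd and Satb1. Outside the lists, Neurl3, Zfp608, Tmem108 and Brwd1 were among the most lowered genes, and Neurl3 for example stood at 14.9, 13.9 and 33.3 CPM against 160, 174 and 156 CPM.

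Against marginal zone-rule cells, 61 of 3287 genes were higher (1.86%) and 49 lower (1.49%) in all members (3.35% in either direction), and 22 of 3346 (0.658%) and 24 (0.717%, together 1.37%) without the cells rich in immunoglobulin, of which 17 and 24 were shared. Spn was at 4.45, 4.50 and 4.60 times the level of these cells and Lgals1 at 5.22, 4.15 and 4.87 times. Zbtb32 stood at 12.9, 2.19 and 0.550 CPM in marginal zone-rule cells. Apoe, Itgb1, Gpr55 and Plscr1 were higher here too. Ahnak2 and Sox5 were not called here, with marginal zone-rule levels of 8.57, 0.548 and 0 CPM for Ahnak2 and 17.1, 6.03 and 5.50 CPM for Sox5. Dnm3, at 4.29, 15.9 and 3.30 CPM in these cells, was called with all members and not without the cells rich in immunoglobulin. Cr2, which chose the comparison cells, is left aside, and among the 5 marginal zone genes compared Cd1d1, Myof and Hes1 were lower. Myof was at 8.22, 8.57 and 28.5 CPM in members against 67.1, 66.3 and 119 CPM. Fcrl5 and Cd9 were not called, with ratios of 1.13 to 1.39 and 1.19 to 2.23. Satb1, Icosl, Neurl3 and Brwd1 were lower here as well, so these 4 genes were lower in members than in either population.

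Other groups of genes were compared with Fcer2a-positive cells as well, where 2.76% of all genes tested were called in either direction. None of 10 MHC class II genes, 14 ribosomal protein genes or 4 cell cycle genes was called against Fcer2a-positive cells, and of 12 genes of the B cell receptor and its coreceptors only Cr2 was lower. Of 10 inhibitory receptors Fcrl5 and Ptpn22 were higher, and of 14 transcription factors Nfatc1 was higher and Bcl6, of germinal centre cells, lower. Of 9 cytokine receptor genes Csf2rb was higher and Il4ra and Il21r lower. Of 7 plasma cell and secretion genes only Mzb1, a chaperone of IgM assembly, was higher, at 1032, 714 and 592 CPM against 299, 302 and 291 CPM. Of 15 clock genes, listed because BHLHE41 is also a clock repressor, none reached 50 CPM. The summed levels of 10 T cell markers were 37.4, 85.6 and 97.5 CPM in members against 51.6, 97.1 and 134 CPM in Fcer2a-positive cells, those of 8 NK markers 50.8, 33.2 and 21.4 against 34.1, 39.6 and 172 CPM, and those of 10 monocyte and macrophage markers 258, 154 and 178 against 1040, 437 and 270 CPM. The 6 neutrophil markers summed to 272, 35.3 and 28.5 against 3533, 247 and 460 CPM, and S100a8 and S100a9 are among the 10 most lowered genes. Cd4 was at 0 in members of library 1, Klrb1c, Ncr1 and Klre1 in library 2, and C1qb in libraries 2 and 3. The 10 haemoglobin and platelet markers summed to 10641, 86.7 and 117 against 19119, 1545 and 3242 CPM, and the part of RNA of other cells in the differences was not tested.

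**Figure D3:**
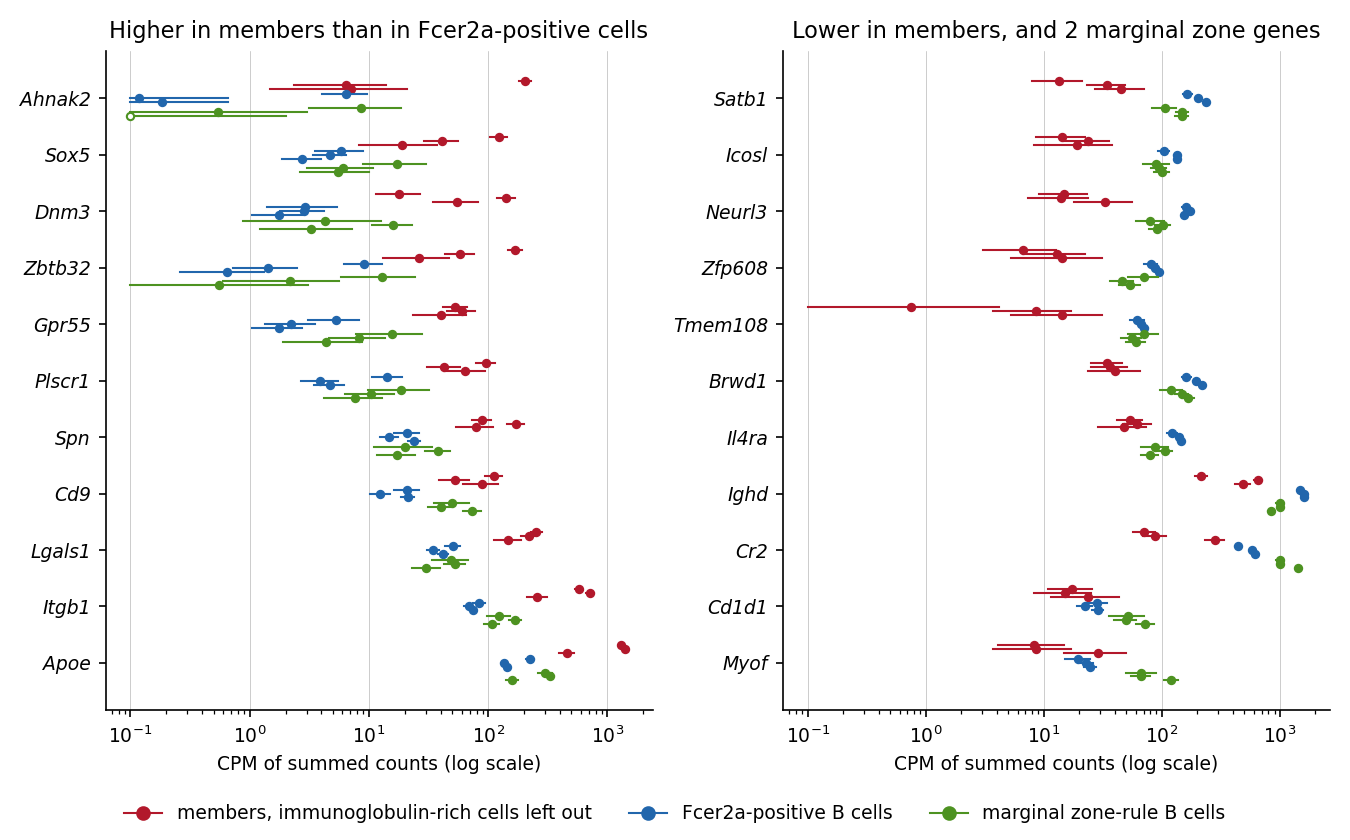
CPM of summed counts (log scale) of genes higher (left) and lower (right) in members, with the last 2 genes on the right from the marginal zone list. Points within a colour are libraries 1, 2 and 3 from top to bottom, bars are exact Poisson 95% intervals, a hollow point is a count of 0 drawn at the left edge and intervals below it are cut there. Every gene on the left from Sox5 down is higher in members than in Fcer2a-positive cells of any library.

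The members of library 1 were divided by light chain. Each cell was given the most counted of Igkc (kappa), Iglc1 (lambda 1) and Iglc2 with Iglc3 (lambda 2 or 3), where these had at least 10 UMIs, a choice made after the data were seen. Lambda 1 led in 128 of 201 members of library 1 (63.7%, 56.6 to 70.3%) but in 6 of 183 of library 2 (3.28%) and 3 of 56 of library 3 (5.36%). It led in 4.20%, 3.01% and 3.03% of Fcer2a-positive cells and in 5.52%, 2.40% and 2.44% of marginal zone-rule cells. The high share was seen in members of library 1, and in neither comparison population of that library. Of the 199 members of library 1 with enough Igkc and Iglc1 UMIs, 120 had over 80% of them from Iglc1, 66 under 20% and 13 between. Lambda 1 members had medians of 54 Iglc1 and 3 Igkc UMIs, and the other members of library 1 1.5 and 39. Iglc2 with Iglc3 gave medians of 17 and 13, and was counted at a like level in cells of either kind.

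Heavy chain V segments followed the same line. Of the lambda 1 members of library 1, 9 could be assigned a heavy chain segment by at least 2 UMIs and 80% of V UMIs, and all 9 had Ighv1-80, whose sequence is printed above, while 0 of 8 assigned among the other members had it. With at least 1 UMI and 50%, it was 39 of 43 (90.7%, 77.9 to 97.4%). The most common heavy chain segment of Fcer2a-positive cells of the same library, Ighv1-64, reached 24 of 553 (4.34%). Counted without any assignment, an Ighv1-80 UMI was found in 40 of 128 lambda 1 members (31.3%) against 0 of 74 other members, at median depths of 6764 and 4828 UMIs, and in 23 of 982 Fcer2a-positive cells (2.34%). An Iglv1 UMI was found in 81 of 128 (63.3%) and in 1 of 74. Iglv1 belongs to the lambda 1 chain by which the cells were split, so Iglv1 counts, alone or in a pair, follow from the split. Where both chains could be assigned by the looser rule, Ighv1-80 with Iglv1 was the pair in 24 of 33 lambda 1 members, and by the stricter rule in 2 of 2. Segments shared in this way do not show descent from a single cell, because junction sequences were not read, and the cells of 5 mice are pooled.

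Cells of this kind also lay outside the rule in library 1. Among B cells with UMIs of both Bhlhe41 and Fcer2a, lambda 1 led in 20 of 41 (48.8%), and 6 of these 20 had an Ighv1-80 UMI. Among Fcer2a-negative B cells without Bhlhe41 outside the marginal zone rule it led in 56 of 329 (17.0%, against 3.00% and 4.88% in libraries 2 and 3), and 15 of those 56 had an Ighv1-80 UMI. An Ighv1-80 UMI was found in 1 of 38 lambda 1 cells among Fcer2a-positive cells and in 2 of 9 among marginal zone-rule cells. Lambda 1 members alone were 6.76% of the B cells of library 1. The other members, without those rich in immunoglobulin, were 3.91% (3.08 to 4.88%), 4.49% (3.87 to 5.17%) and 1.24% (0.934 to 1.62%) of B cells, so that libraries 1 and 2 overlapped by this measure and library 3 stayed lower.

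**Figure D4:**
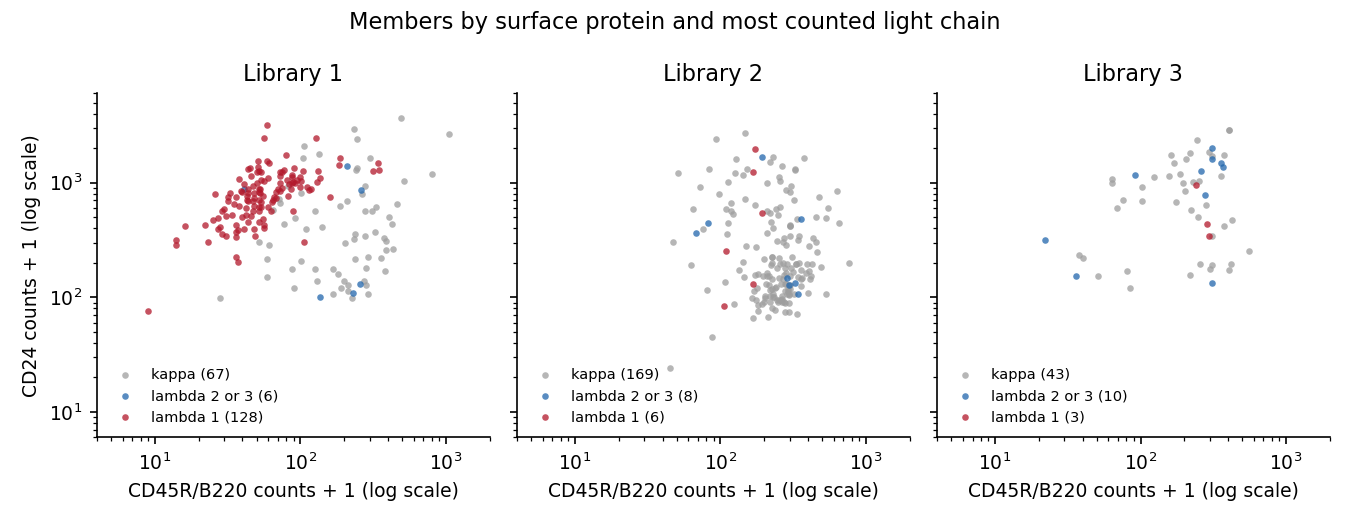
Counts of B220 and CD24 antibody (each plus 1, log scales) in single members of libraries 1, 2 and 3, without the cells rich in immunoglobulin, coloured by most counted light chain with the number of cells in brackets. Lambda 1 members of library 1 gather at low B220 (median 51), with a CD24 median of 806.5.

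The light chain split was matched by surface protein, which took no part in it. In library 1, B220 had a median of 51 in lambda 1 members and 220 in other members, and CD24 of 806.5 and 365. B220 lay under the 5th percentile of Fcer2a-positive cells in 118 of 128 lambda 1 members (92.2%) and in 25.7% of the others. CD44 was at 136.5 and 198, CD38 at 134 and 178.5, and CD11b at 3 and 9, with 3.91% and 29.7% of cells CD11b-high. CD5 was at 30 and 36. CD24 above the 95th percentile of Fcer2a-positive cells was found in 7.81% of lambda 1 members and 10.8% of the others, and the other members of library 3 had a CD24 median of 884 with 25.9% above it. Lambda 1 members were thus B220-low with a raised CD24 median that was not theirs alone, and had CD11b and CD5 near the medians of Fcer2a-positive cells (3 and 29).

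By RNA, 138 of 3463 genes were at least 2-fold higher with intervals apart in lambda 1 members than in the other members of library 1 (3.98%), and 179 were lower (5.17%, together 9.15%), in a comparison that rests on this 1 library. Ahnak2 was at 279 CPM (246 to 315) in lambda 1 members and at 35.9, 6.59 and 7.41 CPM in the other members of libraries 1, 2 and 3. Sox5 was at 163 CPM (138 to 191) against 33.5, 40.6 and 19.8 CPM. The high Ahnak2 and Sox5 of library 1 was thus mostly that of its lambda 1 members. S100a6, a calcium-binding protein of the S100 family, was at 2338 CPM against 605, 243 and 119 CPM. Il5ra, the receptor chain for IL-5, on which B1 cells depend, was at 202 CPM against 38.3, 32.9 and 24.7 CPM, and Zbtb32 at 216 CPM against 59.8, 58.2 and 27.2 CPM.

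Some genes were low or almost absent in the other members. Fras1, which encodes an extracellular matrix protein, was found in 60 of 128 lambda 1 members at 98.8 CPM, and had 1 UMI in the other members of library 1 and 0 in those of libraries 2 and 3. Gng13, a G protein subunit, had 108 CPM against 4.79, 2.20 and 0 CPM, and Slamf9, a receptor of the SLAM family, 82.6 CPM against 2.39, 2.20 and 2.47 CPM. Nacc2, a transcriptional repressor gene, had 153 CPM against 21.5, 24.2 and 7.41 CPM. Each was spread over many cells, and no cell held more than 14.5% of the UMIs of any of these 4 genes in lambda 1 members. Cd24a was higher, as was its protein, at 567 CPM against 270, 122 and 425 CPM. Mki67 and Top2a, genes of dividing cells, were also called higher, but a single cell held 72.7% and 58.7% of their UMIs, as for Car1 and Car2 (92.0% and 91.0%).

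Among the lower genes, Dnm3 had 0 UMIs in the 128 lambda 1 members, which allows up to 4.01 CPM, against 57.4, 142 and 56.8 CPM in the other members. Cd72, an inhibitory coreceptor, was at 29.3 CPM against 301, 655 and 304 CPM, and Cd22, an inhibitory lectin of B cells, at 172 CPM against 455, 836 and 383 CPM. Fgl2, a secreted fibrinogen-like protein, was at 2.17 CPM against 93.3, 182 and 19.8 CPM. Zeb2 was at 180 CPM against 464, 808 and 474 CPM. Ighd, as an immunoglobulin gene left out of the calls of this split, was at 93.4 CPM (74.7 to 115) against 488, 650 and 469 CPM. Fcer1g, the signalling chain of Fc receptors, was at 12.0 CPM against 330, 271 and 54.3 CPM, and Ccr7, a homing receptor, at 7.60 CPM against 74.2, 75.8 and 69.2 CPM. For each of these genes the interval of lambda 1 members lay under those of the other members of all 3 libraries, Fgl2 in library 3 being the closest (upper bound 7.85 against a lower bound of 8.53 CPM). Ccl3 and Gzma, among the 10 most lowered genes, rested on 1 cell of the other members with 100% and 96.0% of their UMIs.

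**Figure D5:**
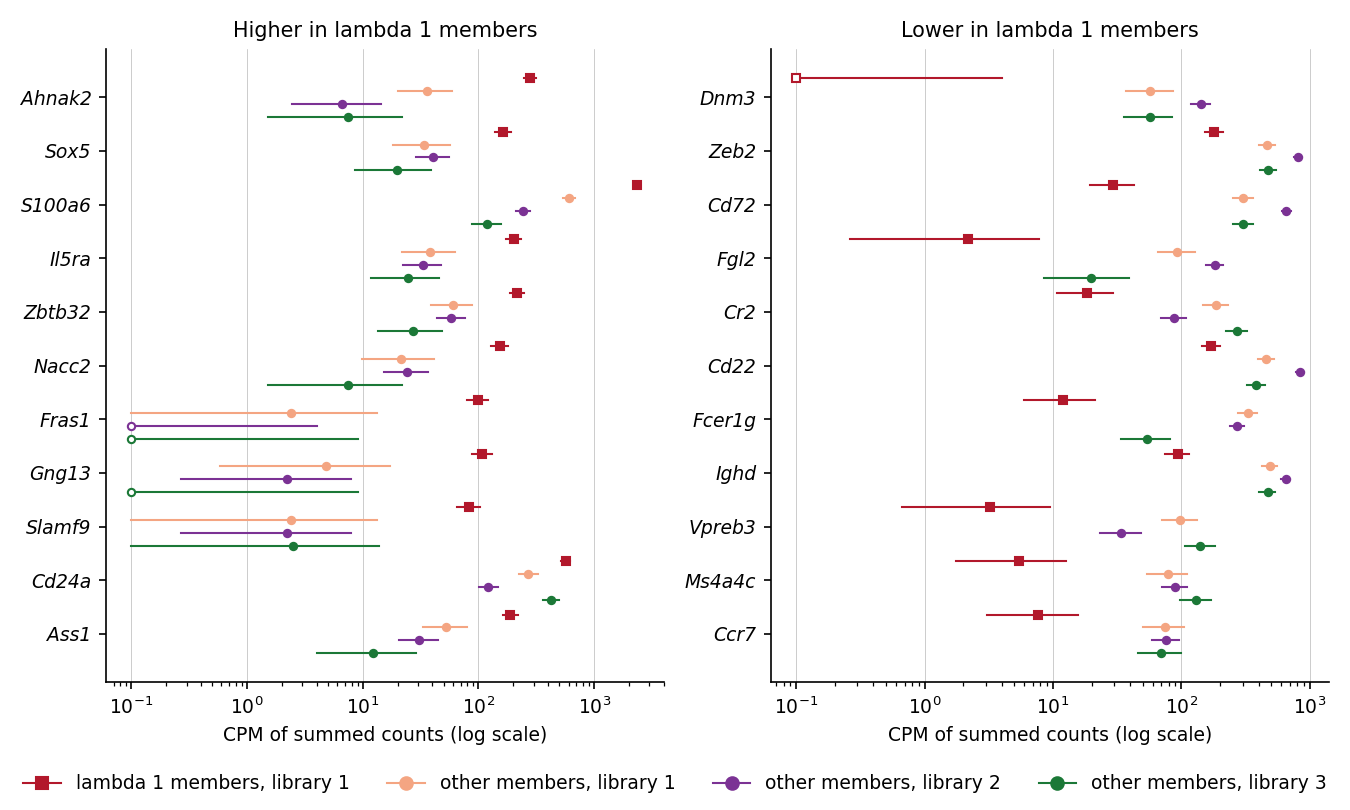
CPM of summed counts (log scale) with exact Poisson 95% intervals for lambda 1 members of library 1 (squares) and other members of libraries 1, 2 and 3 (circles), for genes higher (left) or lower (right) in lambda 1 members. Hollow marks are counts of 0 drawn at the left edge, where lower intervals are cut. Ahnak2, S100a6 and Fras1 are highest in lambda 1 members, and Dnm3 had no UMI there.

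In library 2 other genes were high. Its 183 other members had the highest Dnm3, Zeb2, Cd72, Cd22 and Fgl2 of the 3 libraries, with intervals apart from the other members of libraries 1 and 3 for each of these 5 genes. Itgax (CD11c) and Tbx21 (T-bet), both known from age-associated B cells, stood at 64.8 and 58.2 CPM, against 16.7 and 23.9 CPM in the other members of library 1 and 14.8 and 17.3 CPM in those of library 3. Itgam, the gene of CD11b, stood at 57.1 CPM against 31.1 and 17.3 CPM. For Tbx21 and Itgam the intervals of libraries 1 and 2 overlapped, so neither gene was set apart from library 1. Zbtb32, of the same atypical list, was at a like level in the other members of libraries 1 and 2. In library 2, a Dnm3 UMI was found in 63 of 189 members, of which 60 also had Zeb2 and 58 also had Cd72. Both genes were common there with or without Dnm3, with Zeb2 in 146 and Cd72 in 141 of the 189 members. Among all 448 members, CD11b-high cells had 3 genes higher than CD11b-low cells in every library out of 3455 tested (0.0868%), namely Itgam itself, Lyz2 and Hs3st1, and 0 lower. With the looser assignment, Ighv1-26 was the heavy chain segment in 16 of 97 members of library 2 (16.5%, 9.73 to 25.4%) and Ighv1-53 in 12 (12.4%), spread over 43 segments, and no pair of chains was found in more than 3 of 48 cells.

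Library 3 had the fewest members, with 57 cells outside the set rich in immunoglobulin. Cr2 was at 281 CPM there against 71.0 and 86.7 CPM in libraries 1 and 2, and 10 of 56 had lambda 2 or 3 as the leading light chain (17.9%, 8.91 to 30.4%) against 2.99% and 4.37%. In library 3 lambda 2 or 3 also led in 12 of 62 B cells with UMIs of both Bhlhe41 and Fcer2a (19.4%). It led in 9.02% of Fcer2a-negative B cells without Bhlhe41 outside the marginal zone rule, 6.50% of marginal zone-rule and 5.43% of Fcer2a-positive cells. Members with enough Igkc and Iglc1 UMIs had median Iglc2 with Iglc3 counts of 16, 10 and 22 in libraries 1, 2 and 3. The part of this level in the share was not tested. Between libraries, 257 of 2798 genes were at least 2-fold apart between the highest and lowest library, with separate intervals, over all members (9.19%), and 237 of 3039 (7.8%) without the cells rich in immunoglobulin. Of the 19 B1 genes compared 13 were among the latter, Ahnak2, Sox5, Dnm3, S100a6 and Il5ra included. Genes entered by their CPM summed over the libraries, so a gene high in 1 library could enter through that library alone. These named genes were also chosen with the data in view, so the count is a description only.

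A last split was by CD5 protein. Among the 448 members, counts above the 95th percentile of Fcer2a-positive cells were found in 9 of 202 in library 1 (4.46%, 2.06 to 8.29%). They were found in 17 of 189 in library 2 (8.99%, 5.33 to 14.0%) and 8 of 57 in library 3 (14.0%, 6.26 to 25.8%). Marginal zone-rule cells had 3.30%, 6.32% and 4.06%. In library 1 such counts were found in 1 of the 128 lambda 1 members against 8 of 74 others. Over all members, between CD5-high and CD5-low cells, 0 of 3352 genes were higher and 9 lower (0.268%), among them Jchain, Igkc, Igha and Xbp1, and 0 were lower once the cells rich in immunoglobulin were left out.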

How the data were processed

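Spleen cells of 3 groups were profiled by CITE-seq with a 10x 3′ kit, 1 RNA and 1 antibody library per group. The deposited matrix holds raw UMI counts of 31053 genes and 34 antibodies in 29005 barcodes of 3 libraries, made by the authors with Cell Ranger (5.0.1 per the file header) on mm10, not normalized. Library totals ranged from 24569928 to 40949298 RNA UMIs and set the precision through the counting intervals.

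Counts were summed per library and population and divided by the population's total (CPM), with exact Poisson intervals, and shares had Clopper-Pearson intervals, both at 95% and for counting error only. Counts under 3 entered folds as 3. Antibodies were compared as shares of all antibody counts (call at 1.5-fold). Rule genes were left out of the calls. Python 3.11.15, numpy 2.4.6, scipy 1.17.1, pandas 2.3.3 and scanpy 1.11.5 (Scrublet; marked cells were kept) were used, and Biopython 1.88 for the V segments. The calling script was tested on simulated data.

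The members, the gene lists and the tests were chosen with earlier results of these data known. Named genes are the rule genes and markers, listed genes of at least 20 CPM in the B cell lists and the most counted of the others, and the 10 largest folds in each direction by the smallest library. The split by immunoglobulin content, light chain, CD11b and B220, the looser V rule, and genes such as Itgax, Tbx21, Zeb2, Cd72, Fgl2, Il5ra, S100a6, Mzb1 and Cd24a within those splits were chosen after values were seen. Alternatives changed the mitochondrial limit, the Bhlhe41 minimum, doublets, depth, fold, minimum CPM, V rule, CD5 limit and the libraries used.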

Additional observations from a re-analysis of the deposited data

How the results depend on the processing

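Of 193 alternative values of the main results, 124 stayed within 1.5 times of the reported count or within its interval and 69 did not. Unless said otherwise, values are for all members, which include the cells rich in immunoglobulin. The cause was not tested where the alternative's own construction does not give it. The share of members in B cells was 4.01% (9.36% and 3.96% in libraries 1 and 2) at a mitochondrial limit of 5%, 1.97% (5.76%, 1.72% and 0.552%) with at least 2 Bhlhe41 UMIs, 1.86% (4.11%, 2.26% and 0.574%) after thinning and 3.30% (4.65% in library 1) without lambda 1 members, where library 2 (4.69%) was level with library 1. Genes higher and lower than in Fcer2a-positive cells numbered 109 and 254 at 1.5-fold, 36 and 26 at 3-fold, 124 higher at 20 CPM, 33 and 52 at 100 CPM, and 42 and 53 without members rich in immunoglobulin (43 and 53 with CPM over other genes). Against marginal zone-rule cells they numbered 95 and 114 at 1.5-fold, 29 and 16 at 3-fold, 36 and 22 at 100 CPM, 22 and 24 without those members (23 and 24), and 38 higher with at least 2 Bhlhe41 UMIs. Between libraries there were 679 at 1.5-fold, 93 at 3-fold, 620 at 20 CPM, 110 at 100 CPM and 575 with at least 2 Bhlhe41 UMIs. In lambda 1 against other members there were 234 higher at 1.5-fold, 51 and 90 at 3-fold, 314 lower at 20 CPM and 66 and 70 at 100 CPM. The lambda 1 share of library 1 was 75.5% with at least 2 Bhlhe41 UMIs and 8.96% where 80% of light chain UMIs were required, since Iglc2 and Iglc3 are counted in every cell, but 60.2% with 80% of Igkc and Iglc1. The B1 list kept 2 higher genes at 100 CPM and the follicular list 3 lower at 3-fold. Antibodies numbered 2 higher without doublets and 1 lower at a mitochondrial limit of 5%. The top V pair had 18.5% by the looser rule. Genes lower in CD5-high cells numbered 0 without the members rich in immunoglobulin, 14 at the 90th percentile and 1 by share of antibody counts.

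Leaving out 1 library at a time gave shares of 3.12 to 6.95%, 83 to 97 higher and 99 to 142 lower genes against Fcer2a-positive cells, 78 to 81 and 61 to 87 against marginal zone-rule cells, 99 to 183 between libraries, 1 to 2 higher and 0 to 1 lower antibodies, 2 to 3 higher and 13 to 19 lower genes by CD5, 8 to 10 B1 and 8 to 9 follicular genes (9 and 8 with all libraries) and a top V pair of 4.55 to 8.33%. The count of lower genes moved most without library 2, and the share and the count between libraries without library 1 or 3. Named genes kept 615 of 754 calls against Fcer2a-positive cells (129 lost, 10 turned) and 545 of 676 against marginal zone-rule cells (122 lost, 9 turned). Turned, on the log2 scale and without the members rich in immunoglobulin, were Igkc (-0.46), Jchain (-2.85), Slpi (-2.13, or -2.14 with CPM over other genes), Tmem176a (-0.41) and Xbp1 (-0.43 or -0.44) against Fcer2a-positive cells, and Jchain (-0.028 or -0.022), Ly6c2 (-1.52 or -1.51), Slpi (-0.84) and Xbp1 (-0.57 or -0.56) against marginal zone-rule cells, with Ighg2c (-0.13) at 2 or more Bhlhe41 UMIs. No paired analysis was possible because the libraries carry no group and no replicate number.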
